A study of Mus musculus with 16 samples.

Results

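The late response of 3T3-L1 cells to dexamethasone was taken as the difference between 4 arrays of cells treated with dexamethasone (dex) for 36 h and 4 arrays of cells treated with the vehicle DMSO for 36 h, which are 8 of the 16 arrays of the series. The arrays were chosen by their titles alone, and the response is described over all genes on the array, with most weight on genes that several probes measured alike. 3T3-L1 is an established mouse preadipocyte line that can be driven to become fat cells in culture. Dexamethasone is a synthetic glucocorticoid. The other 8 arrays held the same treatments for 2 h and were used for the error estimate and for a comparison of the effect between times. No genotype, transgene or other agent is labelled for any group, and the sources used here do not give the dose or the medium. The 4 samples of each group are labelled as biological replicates, without saying whether they were separate cultures or passages of the line, and the p-values measure the spread between them.

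The glucocorticoid receptor waits in the cytoplasm in a complex with heat shock proteins, and after it binds a ligand such as dexamethasone it enters the nucleus and acts on genes through short DNA elements or through other transcription factors. Dexamethasone is a standard part of the hormone mixture that starts adipogenesis in 3T3-L1 cells, where C/EBP-beta and C/EBP-delta come first, PPAR-gamma and C/EBP-alpha follow, and the fibroblast-like cytoskeleton and matrix of the preadipocyte are remodelled. A response measured after more than a day can hold direct targets that stay active as well as genes further down.

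Each array compared 1 sample labelled in Cy5 with a pool of the samples in Cy3 on 38467 long-oligonucleotide probes, and a value is the deposited log ratio of sample over pool, read as log2. Such ratios compare samples and say nothing of a gene's level or of which cell type's genes were present, so the labelled cell type could not be checked against its markers. In RNA from whole cultures, fewer cells of a kind and less RNA per cell cannot be told apart. Array medians lay between -0.01 and 0.01. The correlation over all probes between 2 arrays of a group ran from 0.53 to 0.68 in DMSO and from 0.16 (dex arrays 2 and 3) to 0.79 (dex arrays 1 and 3) in dex, and many genes had higher or lower ratios on dex arrays 1 and 3 than on dex arrays 2 and 4. In 84 genes with a large late difference (gene average of at least 1 in size) and little difference at 2 h (under 0.3 in size), the median size of the group mean was 0.63 in dex and 0.64 in DMSO at 36 h, but 0.11 and 0.07 at 2 h. The mean linear ratio over the 8 arrays of a time was near 1 at both times (median 1.03 at each, over 195 genes with a large late difference). The sources used here do not say whether 1 pool served both times, so times are compared below only through dex minus DMSO within each time, where the pool cancels.

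A probe was called where its difference between dex and DMSO had a limma p-value, adjusted over all 38467 probes, under 0.05. At 36 h, 1957 probes (5.09%) were called higher with dex and 1439 (3.74%) lower. All 4 dex arrays lay above all 4 DMSO arrays for 4988 probes (13.0%) and below them for 5308 (13.8%), so arrays that do not overlap were more common than calls. By at least 1 probe, 1326 of 19640 genes (6.75%) were called higher and 948 (4.83%) lower, with 26 more called both ways. These counts depend on the error estimate: with the noisier 2 h arrays left out of the fit, they were 2372 and 2101.

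Of the 19640 genes, 13315 had 1 probe and 6325 had several, and probes of the same gene did not always give the same answer. Of the genes with several probes, 1172 had at least 1 called probe. All probes were called higher in 119 genes (1.88% of those with several probes) and all lower in 64 (1.01%). Some probes were called 1 way in 963, and in 381 of these another probe had the opposite sign. In the 4246 genes with exactly 2 probes, the differences of both probes correlated across genes with a Pearson correlation of 0.36 and a Spearman correlation of 0.33. Where exactly 1 of the 2 was called (534 genes), the uncalled probe had the same sign in 366 (68.5%), with a median of 0.11 in the called direction against 0.47 for the called probe. Both were called the same way in 139 genes and opposite ways in 8. A call by 1 of several probes is thus weaker ground than a call on all, and the genes with all probes called are described first.

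**Figure D1:**
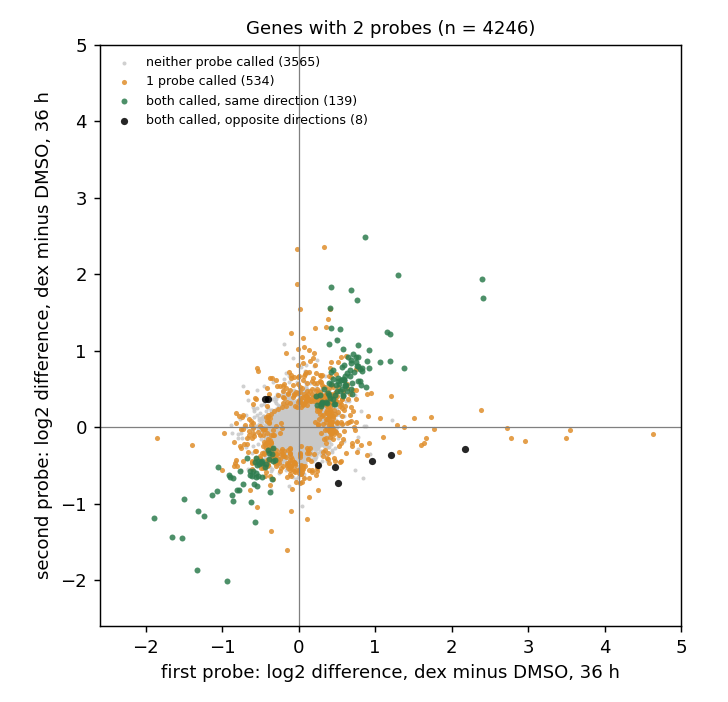
Difference between dex and DMSO at 36 h (log2) of the first probe (x axis) and the second probe (y axis) of the 4246 genes with 2 probes. Colours mark the 139 genes with both probes called the same way, the 534 with 1 probe called, the 8 called in opposite directions and the 3565 with neither; most genes with 1 called probe lie near an axis rather than near the diagonal.

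The 119 genes called higher on all probes had gene averages (the mean difference over a gene's probes) with a median of 0.67, and their single probes ranged from 0.23 to 2.51. The 64 called lower had a median of -0.61, with probes from -0.27 to -2.01. The median over all genes was -0.0012. Of the 119, 87 had 2 probes and 32 had 3 or more, and 16 had a gene average of at least 1. Of the 64, 52 had 2 probes and 12 had 3 or more, and 10 had a gene average of at least 1 in size. Dex and DMSO arrays did not overlap on any probe in 115 of the 119 genes, the exceptions being Abhd17b, Klf6, Pabpc1 and Rassf7, and in all 64 of the lower genes. The genes were chosen by calls on these same arrays, so this separation follows in large part from the choice and adds no support. The counts of 119 and 64 moved with the arrays used. Without dex array 1, dex array 3, DMSO array 1, DMSO array 2 or DMSO array 4, the 119 became 71, 74, 68, 69 or 76, and without the first 4 of those arrays the 64 became 36, 40, 39 or 38. They were 129 and 73 without dex array 2 and 118 and 68 without dex array 4.

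The largest rise carried by several probes was that of Cog1, a subunit of a tethering complex of the Golgi apparatus. Its ratios, averaged over 3 probes, were 1.07, 0.78, 0.60 and 0.62 on dex arrays 1 to 4 and -1.48, -1.30, -1.51 and -1.75 on DMSO arrays 1 to 4. All dex arrays were high and all DMSO arrays low, and the difference was 2.27 ± 0.11 (SE, n = 4 per group; limma adjusted p = 4.3e-09), a 4.83-fold rise. Its 3 probes gave differences between 1.88 and 2.51. Nampt, which makes the first intermediate of the NAD salvage pathway and is also secreted, had ratios of 1.03, 1.0, 0.78 and 0.63 with dex and -1.60, -1.41, -1.03 and -1.21 with DMSO. The groups were again far apart, and Nampt rose 4.50-fold (2.17 ± 0.15). Rhob, a small GTPase of endosomes and the actin cytoskeleton, had ratios from 0.68 to 1.07 with dex and from -1.30 to -0.93 with DMSO and rose 4.14-fold (2.05 ± 0.11). Tead4, a DNA-binding partner of YAP, rose 3.21-fold (1.68 ± 0.14), although its 2 probes gave 0.87 and 2.49.

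Smaller rises on all probes came from genes of several kinds. Megf9, a membrane protein with EGF-like repeats, rose by 1.64 ± 0.17. Myc, the growth-promoting transcription factor, had ratios of 0.43, 0.62, 0.62 and 0.34 with dex and -0.86, -0.95, -0.58 and -0.57 with DMSO, a difference of 1.24 ± 0.13 (2.37-fold). Cp, which encodes the copper ferroxidase ceruloplasmin, rose by 1.21 ± 0.11, with a dex group that spread from 0.03 to 0.59 while DMSO lay between -0.99 and -0.71. Mknk2, a kinase that phosphorylates the cap-binding factor eIF4E, rose by 1.20 ± 0.12, with probes at 1.16 and 1.25. Nusap1, a microtubule-binding protein of the spindle, rose by 1.21 ± 0.15, with probes at 1.20 and 1.22. Cyp39a1, an oxysterol hydroxylase of bile acid synthesis, rose by 1.12 ± 0.10, and the adhesion receptor gene Adgrg2 by 1.07 ± 0.11.

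Genes with 4 or 5 probes called alike give the best support per gene. Vldlr, a receptor that takes up triglyceride-rich lipoproteins, was higher on all 5 of its probes. Its averaged ratios were 0.75, 0.66, 0.65 and 0.40 with dex and -0.69, -0.65, -0.45 and -0.55 with DMSO, and it rose 2.30-fold (1.20 ± 0.11; probes from 0.38 to 1.64). Tsc22d3, the glucocorticoid-induced leucine zipper, was higher on all 4 probes, with ratios of 0.57, 0.47, 0.72 and 0.27 against -0.93, -0.90, -0.46 and -0.53, a 2.32-fold rise (1.21 ± 0.12). In both genes the groups did not overlap, while the probes of 1 gene differed from each other by more than the arrays of a group did. Lpin1, a phosphatidate phosphatase of triglyceride synthesis, was higher on its 3 probes by 0.96 ± 0.11, again with a wide range over probes (0.32 to 1.69).

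**Figure D2:**
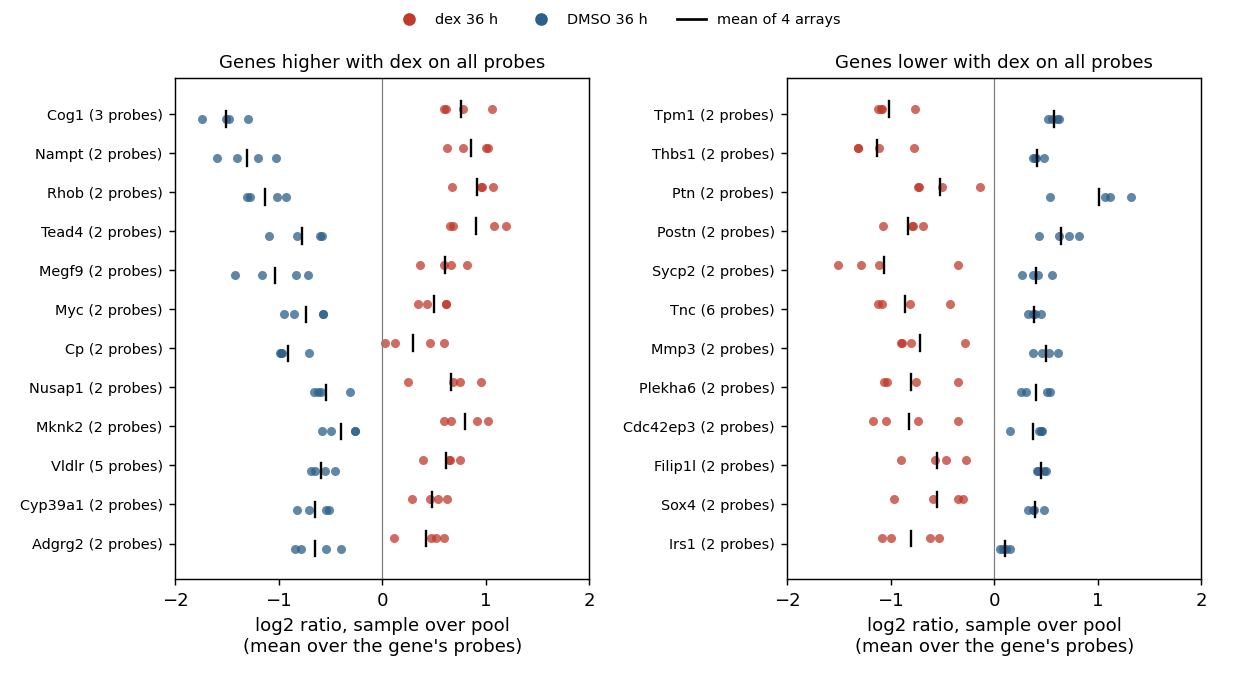
Log2 ratio of sample over pool (x axis), averaged over each gene's probes, for the 12 largest rises (left) and 12 largest falls (right) among genes called on all of several probes. Each point is 1 array of dex 36 h or DMSO 36 h and black bars are means of 4 arrays. The 24 genes were picked only from genes whose groups do not overlap on any probe, so the gap between groups follows from the choice.

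Short stretches before the start sites of some of these genes show the elements searched for in them. Promoter sequences of RefSeq (GRCm38.p6) were found for 15379 of the 19640 genes, and the 250 bases before the start were searched on both strands; a gene with several starts counted if any held the motif. The hexamer AGAACA of the glucocorticoid receptor's element (TGTTCT on the other strand) was in 21 of 93 genes higher on all probes (22.6%), in 6 of 52 genes lower on all probes (11.5%) and in 2401 of all 15379 genes (15.6%). The full palindrome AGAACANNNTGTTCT was in 2 of the 15379 genes and in none of the 93 or 52. The stretches below belong to Tsc22d3 (chrX:140600682-140600727, minus strand, motif starting 185 bases before the start), Lpin1 (chr12:16611104-16611149, minus strand, 163 bases), Vldlr (chr19:27216446-27216483, plus strand, 18 bases) and Cp (chr3:19956924-19956969, plus strand, 110 bases). They were chosen after the values were seen, as rises carried by several probes with the hexamer in the window. Capitals mark the hexamer, 5′ to 3′ on the gene's strand.
Tsc22d3: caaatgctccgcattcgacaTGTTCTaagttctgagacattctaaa
Lpin1: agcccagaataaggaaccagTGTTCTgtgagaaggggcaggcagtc
Vldlr: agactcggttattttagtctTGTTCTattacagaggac
Cp: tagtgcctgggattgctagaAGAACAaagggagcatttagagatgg
The 4 stretches share the 6 letters and little else that the search used. A match describes these letters and is not a site of binding.

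Among the genes lower on all probes, the largest fall was in Tpm1, a tropomyosin that lies along actin filaments. Its ratios were -1.09, -1.10, -1.12 and -0.77 on the dex arrays and 0.52, 0.63, 0.61 and 0.56 on the DMSO arrays. Every dex array was low and the DMSO arrays lay close together, and Tpm1 fell 3.02-fold (-1.60 ± 0.11; limma adjusted p = 1.6e-07). Thbs1, the matrix glycoprotein thrombospondin 1, had ratios of -1.31, -1.11, -1.32 and -0.77 against 0.38, 0.39, 0.48 and 0.40 and fell 2.92-fold (-1.54 ± 0.10). Postn, the matrix protein periostin, had ratios of -0.69, -1.07, -0.80 and -0.79 against 0.44, 0.72, 0.82 and 0.62 and fell 2.80-fold (-1.49 ± 0.11), with its 2 probes at -1.52 and -1.45. Tnc, the matrix protein tenascin C, was lower on all 6 of its probes, which makes it the fall called on the most probes among the 12 largest. Its ratios were -0.81, -1.13, -1.08 and -0.43 against 0.46, 0.40, 0.33 and 0.37, a 2.38-fold fall (-1.25 ± 0.13; probes from -1.82 to -0.72). Dex array 4 was the least lowered in each of Tpm1, Thbs1 and Tnc and still lay below every DMSO array.

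Ptn, the secreted growth factor pleiotrophin, fell 2.91-fold (-1.54 ± 0.15), with the widest DMSO group of the 12 largest falls (0.53, 1.12, 1.32 and 1.07). Mmp3, the matrix protease stromelysin 1, fell by 1.22 ± 0.12 on the log2 scale. Falls on 2 probes of like size were those of Sycp2, a protein of the meiotic synaptonemal complex (-1.47 ± 0.18, probes at -2.01 and -0.94), Plekha6 (-1.21 ± 0.17), Cdc42ep3, an effector of the GTPase Cdc42 (-1.20 ± 0.15), and Filip1l (-1.01 ± 0.13). Sox4, an HMG-box transcription factor, had ratios of -0.30, -0.97, -0.35 and -0.59 against 0.39, 0.38, 0.48 and 0.33 and fell 1.93-fold (-0.95 ± 0.11). Irs1, the adaptor of the insulin receptor, fell 1.88-fold (-0.91 ± 0.12), its DMSO arrays lying close to the pool (0.06 to 0.16) and its dex arrays between -1.08 and -0.53. Dcn, the collagen-binding proteoglycan decorin, was lower on all 3 probes by a similar amount on each (-0.82 to -0.72) and fell 1.70-fold.

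By function, lists of genes were counted with the rule of at least 1 called probe, against 6.75% higher and 4.83% lower over all genes. A gene with more probes has more chances of a call, and these shares were not matched for that. Of 13315 genes with 1 probe, 638 were called higher and 490 lower, while 1172 of 6325 genes with several had a called probe. Lists differ here: 27 of 45 actin genes had several probes, but 2 of 18 adipokine genes. The lists were chosen with earlier results of these data known, so their shares are not independent of these data. Of 39 measured targets of the glucocorticoid receptor, 30 were called higher and none lower, with a median gene average of 0.72. The count was 30 in every fit that left out 1 array of the 36 h groups, and 5 of the genes (Tsc22d3, Lpin1, Per2, Cdkn1a and Rhob) were called on all of several probes. Among the targets with 1 probe, Glul, glutamine synthetase, rose 14.3-fold (3.84 ± 0.21), Fkbp5, a co-chaperone that feeds back on the receptor, 8.62-fold (3.11 ± 0.12), and Zbtb16, a zinc-finger repressor, 6.06-fold (2.60 ± 0.10). Per1 (0.48 ± 0.16, adjusted p = 0.082), Sesn1 (0.56 ± 0.17) and Angptl4 (-0.49 ± 0.16) did not pass. Of 11 genes for the receptor and its chaperones, 5 were higher (3 to 5 without 1 array, moved over 1.5 times by dex array 1, DMSO array 1 or DMSO array 2) and none lower, with a median of 0.24. Hspa8, the constitutive heat shock protein, was higher on all 3 probes (0.41 ± 0.08), and Nr3c1, the receptor itself, measured by 1 probe, did not pass at -0.38 ± 0.12 (adjusted p = 0.063), with dex arrays between -0.65 and -0.36 and DMSO arrays between -0.23 and 0.01.

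Of 30 adipogenic transcription factors, 12 were called higher and 2 lower (Zfp423 and, on 1 of 2 probes, Zfp467), with a median of 0.15. Cebpb (0.87 ± 0.10), Cebpd (0.87 ± 0.12), Klf9 (0.94 ± 0.11) and Id4 (0.99 ± 0.11) each had 1 probe, so of the 14 factors with several probes 1 was called on all, Klf6 (0.39 ± 0.08), and its groups overlapped on a probe. Pparg, the central regulator of adipocyte genes, was called on 1 of 3 probes, with all 3 between 0.29 and 0.82 and an average of 0.57 ± 0.11, while Cebpa stayed at -0.04 ± 0.09 on 2 probes without a call. Of 32 preadipocyte markers and repressors of adipogenesis, 12 were lower and 5 higher, with a median of -0.12. Dlk1, the preadipocyte marker Pref-1, was lower on both probes, with ratios of -0.29, -0.05, -0.23 and 0.02 against 0.12, 0.79, 0.96 and 0.61. DMSO array 1 came close to the dex arrays without overlapping them, and Dlk1 fell 1.69-fold (-0.76 ± 0.14). Id2, an inhibitor of basic helix-loop-helix factors (-1.50 ± 0.14), and Gata2, a zinc-finger factor that restrains adipogenesis (-1.36 ± 0.16), had larger falls, on 1 probe each.

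Of 33 genes of triglyceride synthesis and lipid droplets, 10 were higher and none lower, with a median of 0.05. Of these, 3 were called on all of several probes, namely Lpin1, the acyltransferase gene Agpat2 (0.58 ± 0.13) and the droplet-forming gene Fitm2 (0.70 ± 0.15). The largest change of the list was that of Mogat1, a monoacylglycerol acyltransferase, with ratios of 1.19, 0.83, 0.65 and 0.52 against -3.41, -3.23, -3.37 and -3.56 on 1 probe, an 18.3-fold rise (4.19 ± 0.14). Fabp4, the fatty acid carrier of adipocytes, rose 6.02-fold on 1 probe (2.59 ± 0.31), but its dex arrays split, at 1.57 and 1.66 on arrays 1 and 3 and -0.07 and 0.31 on arrays 2 and 4, all above DMSO (-1.90 to -1.57). Of 18 adipokines and secreted adipocyte proteins, 6 were higher and 1 lower (Apln), with a median of 0.10. Nampt was the one called on all of several probes. Lcn2, the iron-siderophore carrier lipocalin 2, rose 9.10-fold on 1 probe, and Adipoq, adiponectin, did not pass (0.19 ± 0.08).

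By count of called genes, metabolic lists held more rises than falls, but on the sterol and respiratory chain lists the dex arrays split. The median ratio of the sterol list was 0.23 and 0.20 on dex arrays 1 and 3. It was -0.06 and -0.11 on dex arrays 2 and 4, against -0.09 to -0.03 on the DMSO arrays. For the respiratory chain it was 0.26 and 0.25 on dex arrays 1 and 3. On dex arrays 2 and 4 it was -0.08 and 0.02, against -0.04 to 0.04 on the DMSO arrays. Of 26 genes of glutamine and amino acid metabolism and transport, 8 were higher and 2 lower, with a median of 0.01. Beside Glul, Slc1a5, a neutral amino acid exchanger that imports glutamine, was higher on all 3 probes (0.90 ± 0.10), while the 2 lower genes were both transporters and both called on 2 of 2 probes, the glutamate carrier Slc1a3 (-0.77 ± 0.13) and the glutamine carrier Slc38a2 (-0.66 ± 0.09). Of 29 genes of sterol and fatty acid synthesis, 4 were higher (Mvd, Ebp, Dhcr7 and Fasn; 7 without dex array 2) and 1 lower, median 0.04. Of 27 genes of glycolysis and pyruvate metabolism, 8 were higher and 2 lower, median 0.03, led by the kinase gene Pdk4 (1.44 ± 0.11); the 8 became 5 at the lowest without 1 array. Of 36 genes of the mitochondrial respiratory chain, 6 were higher, 1 lower and 1 both, median 0.08, and the 6 became 3 at the lowest. Of 31 metallothioneins and antioxidant genes, 9 were higher and 2 lower, median 0.17, with Mt2 up 4.66-fold and Mt1 3.13-fold on 1 probe each. The glycolytic count was moved over 1.5 times by leaving out dex array 1 or 3 or DMSO array 1, 2 or 4, and the respiratory chain count by dex array 1 or 3 or DMSO array 1 or 4.

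Falls were frequent among structural genes. Of 45 genes of the actin cytoskeleton and contraction, 15 were lower and 3 higher, with a median of -0.17, and the 15 stayed between 14 and 16 without 1 array. Of these, 3 were lower on all probes: Tpm1, another tropomyosin Tpm4 on 3 probes (-0.50 ± 0.08) and the calponin Cnn2 on 2 (-0.48 ± 0.08). Acta2, smooth muscle alpha-actin, was lower on 3 of 4 probes, with ratios of -0.45, -0.60, -0.37 and -0.17 against 0.45, 0.44, 0.63 and 0.47, a 1.86-fold fall (-0.90 ± 0.09). The groups of Acta2 were well apart although its probes ran from -1.95 to -0.22. Tagln, transgelin, did not pass (-0.25 ± 0.09, adjusted p = 0.11). The 3 higher genes rested on 1 called probe each: Fhl1 (of 2, gene average 0.51), Tln1 (of 57, 0.0097) and Lima1 (of 4, 0.0033). The list did not hold the gelsolin gene Gsn, described below, which rose. Of 26 targets of serum response factor and YAP, 4 were lower and 2 higher, median -0.03, and they moved apart: Egr1 (-1.63 ± 0.16) and F3 (-0.82 ± 0.13) were lower with Thbs1, whereas Ccn1, a matricellular protein, was higher on both probes (0.86 ± 0.07). The 2 higher genes (Ccn1 and the receptor kinase gene Axl) became 1 without any array other than dex array 4.

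The CArG box, the element of serum response factor, was in the window of 9 of 40 actin-list genes with a promoter (22.5%), of 3 of the 13 lower ones (23.1%) and of 1.4% of all genes. Those 3 are shown, with capitals for the box: Cnn2 (chr10:79988524-79988573, plus strand, 56 bases before the start), Myl9 (chr2:156775283-156775332, plus strand, 161 bases) and Vcl (chr14:20929151-20929200, plus strand, 227 bases). Myl9 was called lower on 1 of 2 probes (-0.25, the other at 0.04), and its gene average did not pass (-0.11 ± 0.07, limma adjusted p = 0.47). The motif GGAATG (or its complement) of TEAD factors was in 15 of the 40 (37.5%), in 6 of the 13 (46.2%) and in 13.4% of all genes, and in 18.3% of genes higher and 21.2% of genes lower on all probes. It is shown in capitals for Tpm1 (chr9:67049244-67049289, minus strand, 56 bases before the start). CArG boxes were in 1.08% of the genes higher and 3.85% of those lower on all probes.
Cnn2: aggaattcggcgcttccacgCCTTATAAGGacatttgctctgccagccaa
Myl9: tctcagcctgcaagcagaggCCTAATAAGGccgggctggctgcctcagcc
Vcl: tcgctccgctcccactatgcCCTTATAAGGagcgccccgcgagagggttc
Tpm1: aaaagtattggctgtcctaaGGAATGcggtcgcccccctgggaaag
Cnn2 and Vcl hold the same 10 letters. The box was as frequent in the whole actin list as among its lower members.

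Of 43 matrix glycoproteins and proteoglycans, 18 were lower, 1 higher (Fbn2) and 1 both ways (Ltbp1), with a median of -0.28, and the 18 lay between 14 and 20 without 1 array. On this list 18 genes had several probes, and 7 of them were lower on all (Tnc, Postn, Thbs1, Thbs2, Thbs3, Dcn and Ogn), against 1.01% of all genes with several probes. Of 33 fibrillar collagens and processing enzymes, 11 were lower and 6 higher, median -0.17. Without dex array 3, DMSO array 1 or DMSO array 2 the 11 became 7 at the lowest, and without DMSO array 1 the 6 became 3. Here the members split: Col1a1 (-0.72 ± 0.10), Col1a2 (-0.58 ± 0.11) and Col12a1 (-0.99 ± 0.07, with probes at -1.85 and -0.14) were lower, Loxl1, a crosslinking oxidase, was lower on both probes (-0.61 ± 0.09) and Col5a2 on all 3 (-0.39 ± 0.09), and Col6a1 rose on all 3 of its probes (0.71 ± 0.09). Col6a1 had ratios of 0.31, 0.50, 0.17 and 0.61 against -0.30, -0.33, -0.21 and -0.42, with no overlap. Of 24 basement membrane genes, 6 were higher and 4 lower (2 at the lowest without 1 array), median 0.07. The type IV collagen chain Col4a1 rose 3.03-fold (1.60 ± 0.09) and Col4a2 1.64-fold, each on 1 probe, Lama2, a laminin chain, rose 2.08-fold, and Npnt, the integrin ligand nephronectin, rose on 2 probes (0.68 ± 0.14). The 4 lower count was moved by leaving out dex array 2 or any DMSO array.

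Of 37 matrix proteases and inhibitors, 7 were higher and 6 lower, median -0.02, with Adamts12 higher (0.96 ± 0.10) and Mmp3 and the disintegrin metalloprotease Adam12 lower (-0.60 ± 0.08) on all probes. Of 41 integrins, cadherins and focal adhesion genes, 7 were higher and 11 lower, median -0.01. Cdh13, a cadherin without a transmembrane part, was higher on 3 probes, with ratios of 0.57, 0.49, 0.66 and 0.50 against -0.47, -0.43, -0.23 and -0.31 (0.91 ± 0.09). Lims2, a focal adhesion adaptor, was higher on 2 probes (0.98 ± 0.10), and Ncam1, a neural adhesion molecule, was lower on 3 (-0.61 ± 0.10). The groups did not overlap in any of these 3 genes, and the adhesion list as a whole had no common direction. Of 11 fibroblast markers, 5 were lower (Col1a1, Col1a2, Col3a1, Pdgfrb and Dcn) and 1 higher (P4hb), median -0.38; the collagens and Dcn are also counted on the matrix lists.

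**Figure D3:**
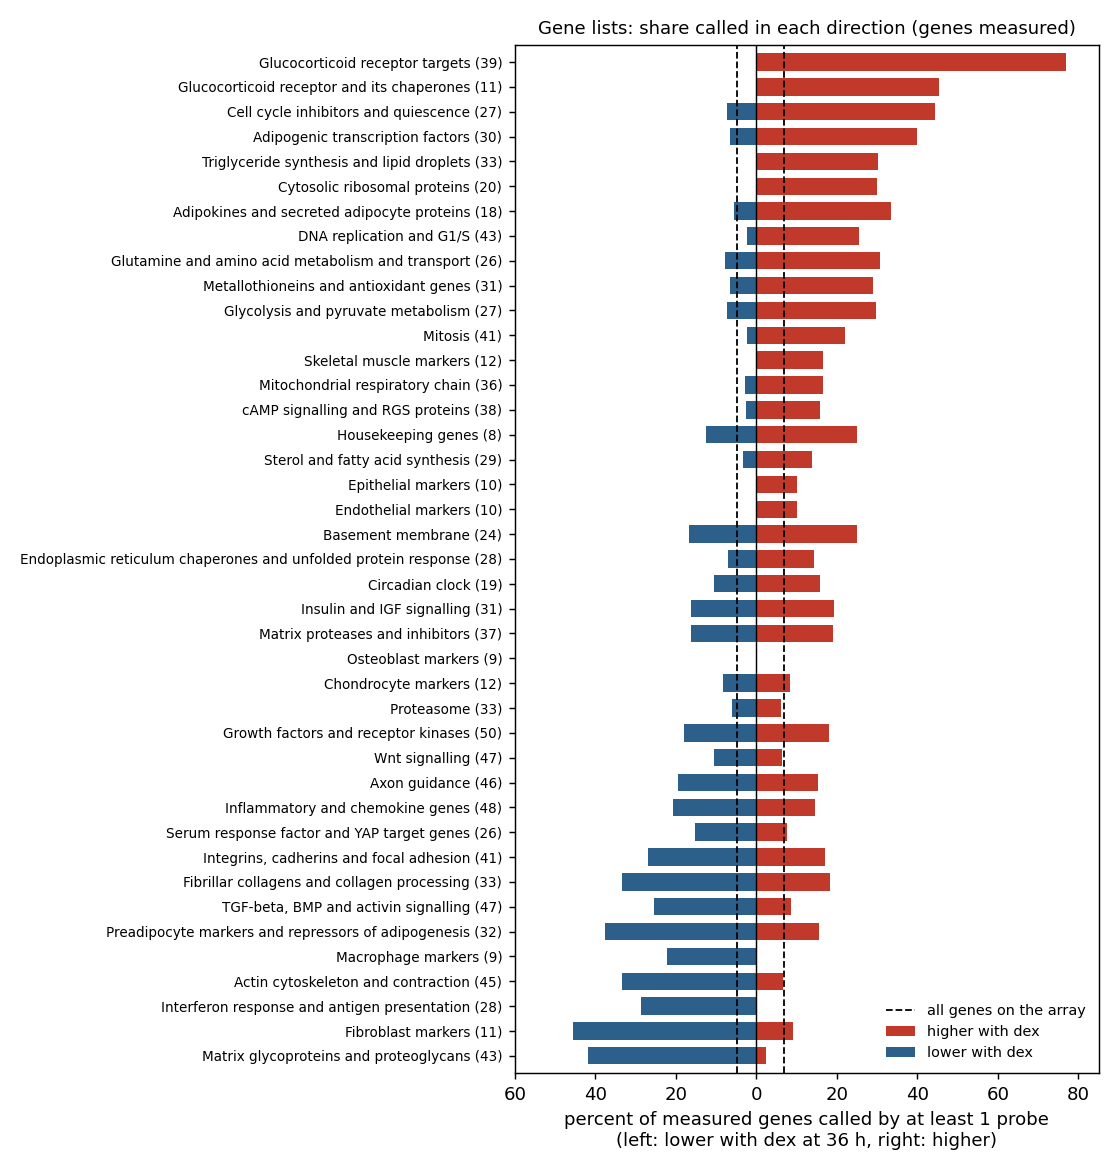
Share of the measured genes of each list called lower (left bars) and higher (right bars) with dex at 36 h by at least 1 probe, with the number measured in brackets and dashed lines at the shares over all 19640 genes (4.83% and 6.75%). The receptor targets extend farthest to the right, with 30 of 39 called higher, and matrix glycoproteins and fibroblast markers farthest to the left. The lists were chosen with earlier results of these data known, and the dashed lines are not matched for numbers of probes.

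Signalling lists were mixed. Of 47 genes of TGF-beta, BMP and activin signalling, 12 were lower, 4 higher and 1 both, median -0.07. The 12 became 6 at the lowest without 1 array (dex array 1, DMSO array 1 or DMSO array 2). Tgfbr3, a co-receptor, was higher on both probes (0.78 ± 0.09), and Smad7, an inhibitor of the pathway, was lower on 1 (-0.83 ± 0.15). Of 47 Wnt genes, 5 were lower and 3 higher, median -0.12; the secreted antagonist Sfrp2 fell 3.18-fold on 1 probe, the receptor gene Fzd1 fell 2.19-fold on 1, and the ligand gene Wnt5a fell on both probes (-0.48 ± 0.08), while the 5 ran from 3 to 8 without 1 array (each array except dex array 4 moved it). Of 31 insulin and IGF genes, 6 were higher and 5 lower, median 0.04, with Irs1 the one on all of several probes and Ddit4, an inhibitor of mTORC1, the largest rise (2.20 ± 0.13). Of 50 growth factors and receptor kinases, 9 were higher and 9 lower, median -0.04. Kitl, the ligand of the receptor Kit, rose on 2 probes (0.83 ± 0.10) and Gas6, a ligand of Axl-family receptors, on 1 (1.38 ± 0.10), and the lower count became 5 at the lowest without DMSO array 1, 2 or 3.

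Of 48 inflammatory and chemokine genes, 10 were lower and 7 higher, median -0.04. The chemokine gene Cxcl5 fell 3.43-fold on 1 probe (-1.78 ± 0.23), Nfkbia, the inhibitor of NF-kappaB, rose 1.94-fold on 1, and 2 genes were called on all of several probes, both higher: Tlr4, the lipopolysaccharide receptor (0.65 ± 0.08), and Ptges, a prostaglandin E synthase (0.54 ± 0.07). Of 28 interferon response and antigen presentation genes, none was higher, 8 were lower and 1 was called both ways, median -0.25, with 7 to 9 lower without 1 array, but 16 lower and 2 higher with only the 36 h arrays. Ifit1, Ifit3 and Gbp2 fell by 0.83 to 0.86 on the log2 scale on 1 probe each, and no gene of this list was called on all of several probes. Of 46 axon guidance genes, 7 were higher, 9 lower and 1 both (median -0.07). Of 38 cAMP and RGS genes, 6 were higher and 1 lower (7 and 7 with only the 36 h arrays; median -0.0038), with Prkar2a, a regulatory subunit of protein kinase A, on both probes (0.42 ± 0.09). Of 19 clock genes, 3 were higher and 2 lower (median 0.06), with Per2 the one on all of several probes (0.60 ± 0.12).

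Cell cycle lists of opposite roles both held more rises than falls. Of 27 cell cycle inhibitors and quiescence genes, 12 were higher and 2 lower, median 0.20, and Cdkn1a, the inhibitor p21, was higher on both probes (0.59 ± 0.07). Of 43 genes of DNA replication and the G1/S step, 11 were higher and 1 lower, median 0.10 (7 higher at the lowest without 1 array, moved by dex array 3 and DMSO array 2), with Myc on all probes and Ccnd1, cyclin D1, on 2 of 4 (0.65 ± 0.14). Of 41 mitosis genes, 9 were higher and 1 lower (Aurkb), median 0.33. This count was unstable: it ran from 4 to 18 without 1 array and was moved by leaving out any dex array, DMSO array 1 or DMSO array 2. The median ratio of the list was 0.31 and 0.42 on dex arrays 1 and 3 but 0.01 and 0.01 on dex arrays 2 and 4, against -0.21 to -0.06 on the DMSO arrays. All 4 dex arrays thus lay above DMSO, by very different amounts, and Nusap1 was the one mitosis gene called on all of several probes.

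Of 20 ribosomal protein genes, 6 were higher and none lower, median 0.13, including Rplp0 (0.69 ± 0.10) and Rpl4 (0.49 ± 0.11) on both probes, but 1 was left at the lowest without 1 array (dex array 1 or 3 or DMSO array 1 or 2 moved the count). Of 33 proteasome genes, 2 were higher, Psmc5 (0.31 ± 0.07) and Psmd6 (0.30 ± 0.07), each on both probes, and 2 lower, Psmc3 and Psmb6, on 1 each, median 0.08. Of 28 chaperones and unfolded protein response genes, 4 were higher and 2 lower, median 0.06, with 1 to 5 higher without 1 array (moved by dex array 1 or 3 or DMSO array 1, 2 or 4). Of 8 housekeeping genes, 2 were higher (Pgk1, and Polr2a on 1 of 33 probes), 1 was lower (Tbp) and 2 both ways (Hprt and Sdha), median -0.0044. For other cell types, 2 of 9 macrophage markers were lower (Fcgr3 and Lyz2), 1 of 10 endothelial (Flt1) and 1 of 10 epithelial markers (Krt8) were higher, 1 of 12 chondrocyte markers was higher (Sox5) and 1 lower (Sox9), 0 of 9 osteoblast markers were called, and 2 of 12 skeletal muscle markers were higher (Mylpf and Tnni2). The medians of these 6 lists were -0.05, -0.0061, 0.01, -0.02, -0.04 and 0.07 in that order, and their part in the other results was not tested.

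Counts of 5 or fewer genes on a list often changed over 1.5 times when 1 array was left out. Of the counts given above, the 5 higher preadipocyte genes became 3 without DMSO array 3 or 4, and the 2 lower adipogenic factors ranged from 0 to 3. The 2 lower clock genes became 1 without dex array 1 or 3 or DMSO array 1 or 2, and the proteasome counts ranged from 0 to 4 higher and 1 to 2 lower. Such counts of 0 were also reached, without some arrays, by the single genes or pairs lower on the adipokine, sterol, glycolysis, respiratory chain, cAMP, chaperone and mitosis lists and by those higher on the matrix glycoprotein, endothelial and fibroblast lists. With only the 36 h arrays, where more genes were called in all, the counts lower rose to 12 for Wnt, 14 for growth factors, 11 for matrix proteases, 6 for adipogenic factors, 4 for amino acid genes and 5 each for clock, proteasome and chaperone genes, and the counts higher rose to 9 for TGF-beta, 11 for matrix proteases and 7 for chaperones. In that fit 3 triglyceride genes, 2 genes of the receptor and its chaperones and 1 receptor target were lower, DNA replication and chondrocyte genes had 3 lower each, the epithelial list had 2 higher, the epithelial, endothelial and muscle lists had 1 lower each, and no matrix glycoprotein gene was higher. Apln lost its call without any of the 8 arrays. On the osteoblast list the limma count was 0 in every such fit, and 0 genes had a probe at an unadjusted p under 0.05. Other lists also had no gene called lower. At that unadjusted level, 1 gene each had a probe lower among the receptor and its chaperones, ribosomal proteins, epithelial markers and muscle markers. There were 2 such genes each among receptor targets and triglyceride synthesis genes and 0 among endothelial markers. On the interferon and macrophage lists, with none called higher, 3 genes and 1 gene had a probe higher.

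A set of 12 genes carried at least 20 probes and show how far single probes scatter when a gene is measured many times. They were looked at after the values were seen. Gsn, the actin-severing protein gelsolin, had 22 probes, of which 20 were called higher and 1 lower, with a median over probes of 0.96. Its averaged ratios were 0.50, 0.53, 0.37 and 0.50 with dex and -0.38, -0.34, -0.34 and -0.46 with DMSO, narrow groups on either side of the pool, and Gsn rose 1.81-fold (0.86 ± 0.07; adjusted p = 1.0e-06). Actb, cytoplasmic beta-actin, had 32 probes, all below 0, of which 24 were called, running from -0.82 to -0.23. Its ratios were -0.08, -0.18, -0.04 and -0.03 against 0.25, 0.37, 0.37 and 0.26, so a difference of 1.32-fold (-0.40 ± 0.06; adjusted p = 0.00079) was resolved with no overlap. Gelsolin and beta-actin, both parts of the actin cytoskeleton, therefore moved in opposite directions with dex.

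The other 10 genes with many probes changed less. B2m, the light chain of MHC class I, had all 30 probes below 0 but 5 called, and its average did not pass (-0.34 ± 0.12, adjusted p = 0.090), dex array 2 lying lowest at -0.57. Tbp, the TATA-binding protein, had 6 of 31 probes called lower and a small average that passed (-0.28 ± 0.07, adjusted p = 0.023). Sdha, a subunit of succinate dehydrogenase, had 8 of 30 probes called lower and 2 higher, and Hprt 3 lower and 1 higher of 29, with averages that did not pass. Rpn2 had 6 of 21 called higher and an average of 0.21 ± 0.07 (adjusted p = 0.066). Ywhaz (0 of 30 probes called by limma, 4 at an unadjusted p under 0.05), Polr2a (1 of 33), Tln1 (1 of 57), Lrp1 (1 of 89) and Rpl13a (1 of 21) had averages between -0.13 and 0.37, none of which passed. Probes of 1 gene share its samples and arrays, so many probes narrow the error of a gene's average only in part.

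**Figure D4:**
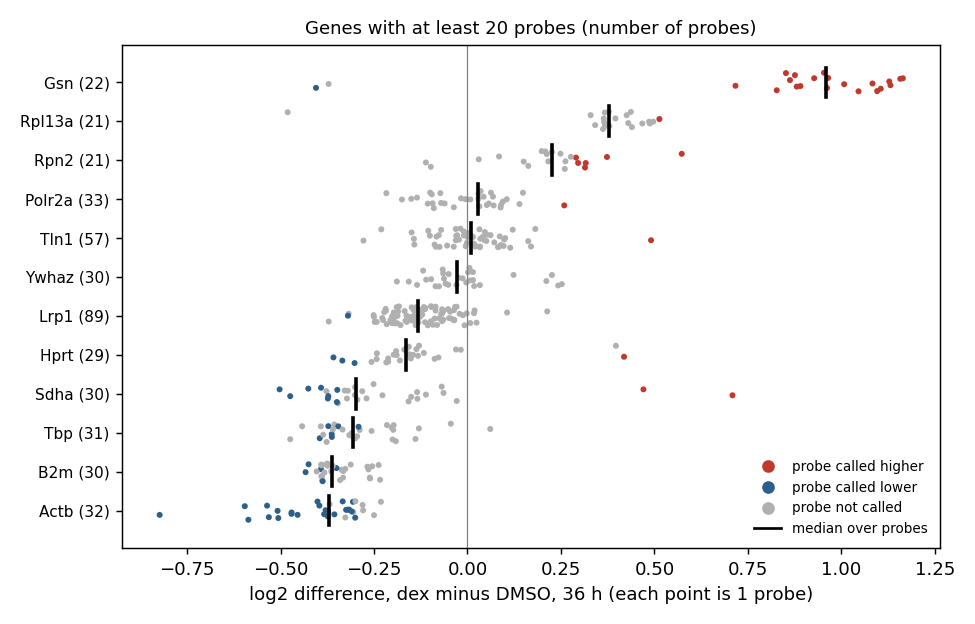
Difference between dex and DMSO at 36 h (log2) of every probe of the 12 genes with at least 20 probes, coloured by whether the probe was called. The probes of Gsn gather near 0.96 apart from 2 below 0, and all 32 probes of Actb lie below 0.

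The late effect was then set beside the effect of 2 h of dex, measured on other arrays. At 2 h, 387 genes (1.97%) were called higher and 238 (1.21%) lower by at least 1 probe. Of the 119 genes higher on all probes at 36 h, 35 were higher at 2 h too (29.4% of the 119 and 9.04% of the 387), against 222 of all 6325 genes with several probes (3.51%). Of the 64 lower, 8 were lower at 2 h (12.5% of the 64 and 3.36% of the 238), against 111 of 6325 (1.755%). The 387 and 238 also hold genes with 1 probe, which could not be among the 119 or 64. The difference between the 2 effects was tested per gene average, and 570 of 19640 genes (2.90%) passed. Among the 119, 52 passed, with the 36 h effect above the 2 h effect in 51 and below it in 1, Dok1 (0.65 ± 0.07 at 36 h, 1.63 ± 0.07 at 2 h). Among the 64, 31 passed, all with the 36 h effect below the 2 h effect. These differences are signed and need not mean a larger size at 36 h: Arhgap20 went from 0.51 at 2 h to -0.46 at 36 h. Since the genes were chosen at 36 h, the direction of these last counts follows in part from the choice.

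**Figure D5:**
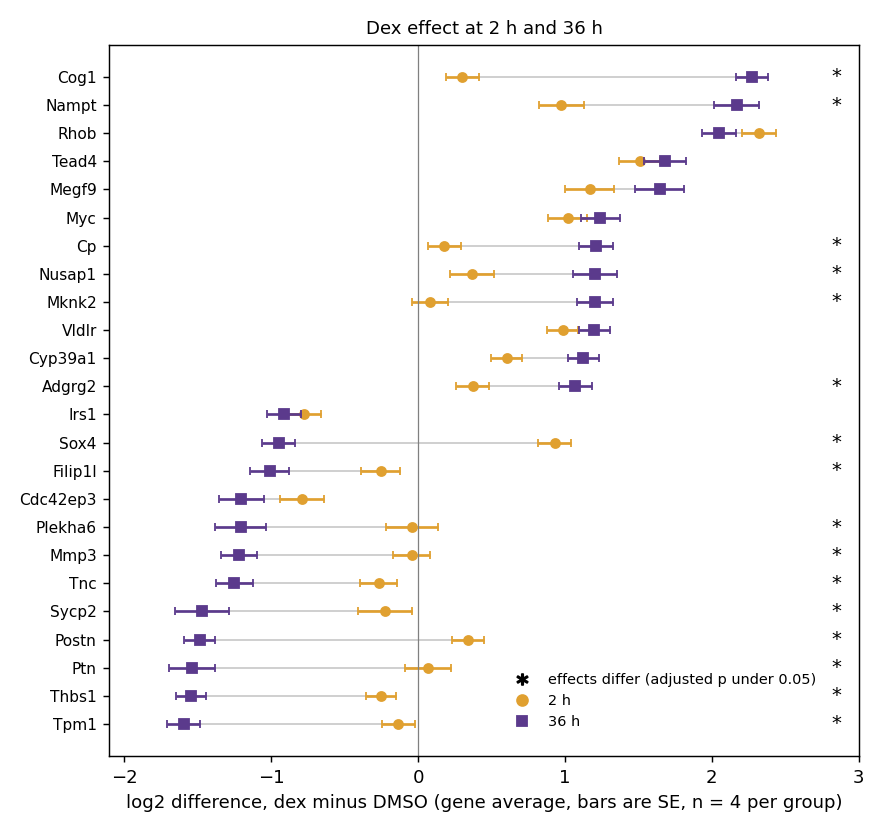
Dex effect (log2 difference of dex minus DMSO, gene average ± SE, n = 4 per group) at 2 h and at 36 h for the 12 largest rises and 12 largest falls called on all of several probes; a star marks genes whose effects differed between the times. Most falls have a 2 h effect near 0, and Sox4 has effects of opposite sign.

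The large rises were of 2 kinds by this test. Rhob (2.32 ± 0.11 at 2 h, 2.05 ± 0.11 at 36 h), Tead4 (1.51 and 1.68), Myc (1.02 and 1.24), Vldlr (0.98 and 1.20) and Tsc22d3 (1.17 and 1.21) had effects at both times whose difference did not pass. Cog1 (0.30 at 2 h), Cp (0.18) and Mknk2 (0.08) had small effects at 2 h that did not pass, and the difference between times did (1.97 ± 0.16, 1.03 ± 0.16 and 1.12 ± 0.17). Nampt was in between, with an effect of 0.98 at 2 h that differed between times by 1.19 ± 0.21. Falls were mostly late: of the 12 largest, 2 had a called fall at 2 h by gene average, Cdc42ep3 (-0.79) and Irs1 (-0.78). Tpm1 (-0.14 at 2 h), Thbs1 (-0.25), Ptn (0.07), Postn (0.34), Tnc (-0.27) and Mmp3 (-0.04) did not pass at 2 h, and each differed between times. Outside the 12, the matrix gene Dcn had an effect of -0.0018 at 2 h and differed between times by -0.77 ± 0.13. On the matrix glycoprotein list, Has2 (-1.66 at 2 h, -1.03 at 36 h) and Spon2 (-0.45 and -0.55) already passed at 2 h. The other genes lower on that list did not pass at 2 h by gene average. On the side of the rises, Gsn had 0.04 at 2 h and differed by 0.82 ± 0.10.

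A group of 5 genes called on all probes at 36 h was called the other way at 2 h. Sox4 was higher at 2 h (0.93 ± 0.11) and lower at 36 h (-0.95 ± 0.11), a difference of -1.88 ± 0.16. Prokr1, a receptor for prokineticins, was lower on 3 probes at 36 h (-0.80 ± 0.08) and higher at 2 h (0.44 ± 0.08). Arhgap20 went from 0.51 ± 0.09 to -0.46 ± 0.09 and the Wnt ligand gene Wnt5a from 0.33 ± 0.08 (called on a probe; adjusted p of the gene average 0.053) to -0.48 ± 0.08. Cldn15, a claudin of tight junctions, was the one that went from lower (-0.40 ± 0.12, called on a probe; adjusted p of the gene average 0.11) to higher (1.03 ± 0.12). In each of the 5 genes the test of the difference between times passed.

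Genes on a single probe have no second probe to check them. They made up 638 of the genes called higher and 490 of those called lower. After Mogat1, the largest rises were those of Plxdc1 (4.11 ± 0.13), 1700018A23Rik (3.98 ± 0.14), Glul, Ncf4 (3.52 ± 0.25) and Thap8 (3.49 ± 0.22). Plxdc1 is a membrane protein of tumour endothelium and Ncf4 a subunit of the phagocyte NADPH oxidase. The largest falls were those of A630052E07Rik (-2.40 ± 0.21), C430049B03Rik (-1.98 ± 0.15), 9430052C07Rik (-1.90 ± 0.18), Cxcl5, Sfrp2 and Egr1. The immediate early factor Egr1 had no difference that passed at 2 h (0.13) and differed between times by -1.77.

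How far the probes of 1 gene can differ is seen in genes where 1 probe moved and the others did not. Zcchc14 had probes at 4.63 and -0.09, Artn, a ligand of the GDNF family, had probes from 0.11 to 4.00, and Adcy3, an adenylate cyclase, from 0.02 to 3.84. In all 3 only 1 probe was called, and the gene's average (2.27, 1.42 and 1.31) lies where no probe does. Mrnip (3.54 and -0.04), Epb41l5 (3.49 and -0.15) and Hap1 (3.25 and -0.05 at the extremes) had the same pattern. The high probes of these 6 genes lay between 3.25 and 4.63, about as high as the largest single-probe rises, whereas among genes called on all probes the highest probe was at 2.51. The sources used here do not place the probes on the transcripts, so transcript forms and probe behaviour cannot be told apart.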

How the data were processed

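RNA of 3T3-L1 cells was measured on 16 arrays of the 2-colour kind in 4 groups of 4 (dex or DMSO, 2 h or 36 h), grouped by title. Per the labels' protocols, total RNA was labelled with Cy5 and the pooled reference with Cy3. The deposited values are log ratios, read here as log2. The sources used here do not give the base, background correction or within-array normalization. Spot intensities were not used, so signal over background is unknown and the number of arrays limits the precision. The submitters' processing notes name limma. No further scaling was applied. A model of the 4 group means over all 16 arrays was fitted per probe with limma 3.58.1 (R 4.3.3; 12 residual degrees of freedom) and p-values were adjusted by Benjamini-Hochberg over 38467 probes. The same fit on gene averages covered 19640 genes, and values are given from it as difference ± SE with its adjusted p. On the arrays, 29456 probes named 1 gene, 760 several and 8251 none. For 28735 of the probes that named 1 gene, the symbol was taken from RefSeq by Entrez identifier, whether or not it changed. The 131 missing values were all on 2 h arrays. The lowest correlation between a dex and a DMSO array at 36 h was -0.34 (dex arrays 1 and 3 against DMSO array 2); the direction was kept because the labels state the dyes.

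Genes named are the 12 largest rises and falls among genes called on all of several probes with arrays that do not overlap, up to 4 called and 2 uncalled genes per list, the 6 largest single-probe rises and falls, the 6 genes with probes farthest apart and a fixed list of 28 known genes. Members of small counts, exceptions, genes with 20 or more probes and the promoters shown were named after their values were seen. The genes and lists were chosen with earlier results of these data known. Scripts were tested on simulated data. Alternatives tried were other error estimates, scalings, thresholds, a replicate block and leaving out each array.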

Additional observations from a re-analysis of the deposited data

Results flagged for a closer look

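The 48 genes with the largest differences or on the list of known genes were examined for an array that stood apart from the other 3 of its group and for a dex effect that differed between 36 h and 2 h. Among 96 groups of 4 arrays, 6 held such an array (a gap to the nearest array above Dixon's critical value as a share of the group's range), where chance alone gives about 1 in 20 groups. Among dex arrays these were the highest of Tpm1 (-0.77) and of Mmp3 (-0.28), both on array 4, and the lowest of Per1 (-0.17, array 3). Among DMSO arrays they were the highest of Cp (-0.71, array 3), the lowest of Cdc42ep3 (0.16, array 4) and the highest of Acta2 (0.63, array 3).

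The dex effect differed between times, by limma's test of the difference on gene averages, in 23 of the 48 genes. The 36 h effect minus the 2 h effect was 4.13 for Mogat1, 1.97 for Cog1, 1.19 for Nampt, 1.18 for Col4a1, 1.12 for Mknk2, 1.09 for Gas6, 1.03 for Cp, 0.84 for Nusap1, 0.74 for Fkbp5 and 0.70 for Adgrg2. It was -1.88 for Sox4, -1.83 for Postn, -1.61 for Ptn, -1.46 for Tpm1, -1.29 for Thbs1, -1.25 for Sycp2, -1.17 for both Mmp3 and Plekha6, -0.98 for Tnc, -0.87 for Acta2, -0.77 for Col1a1, -0.75 for Filip1l and -0.40 for Actb. Of these genes, Sox4 had effects that passed in opposite directions at the 2 times.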

How the results depend on the processing

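The calls depended mostly on the error estimate. In the order probes higher and lower, genes higher and lower by at least 1 probe, and genes higher and lower on all of several probes, the counts were 1957, 1439, 1326, 948, 119 and 64 as reported. With only the 36 h arrays they were 3645, 3340, 2372, 2101, 237 and 144. With array weights they were 7255, 7510, 4235, 4325, 512 and 356, with quantile normalization 3350, 3304, 2174, 2075, 215 and 140. At log-odds above 0, the rule of the study's design, they were 938, 523, 655, 371, 51 and 28, and with a difference of at least 0.5 required 1099, 712, 722, 481, 74 and 36. At least 2 called probes of 1 direction, in place of all, gave 201 and 112 genes. Of the 119 and 64 genes, 116 and 63 were called on all probes with only the 36 h arrays, all with array weights, and 118 and 63 with quantile normalization. The share of called probes that were higher was 57.6% as reported, 49.1% with array weights, 50.3% with quantile normalization and 64.2% at log-odds above 0. Without 1 array, the 6 counts ranged from 1150 to 2448, 706 to 2094, 787 to 1626, 483 to 1398, 68 to 129 and 36 to 73. Genes whose effect differed between times on at least 1 probe numbered 683, 456 to 751 without 1 array, 1847 with array weights and 1405 with quantile normalization. Without DMSO array 4 of 2 h, chosen after seeing the data, the 6 counts were 2505, 2094, 1678, 1356, 153 and 95. Replicate numbers are shared by the groups, and 4 arrays per group are too few to tell whether the same number pairs samples. Deviations from the group means of same-numbered 36 h arrays correlated from -0.08 to 0.34 and other pairs from -0.31 to 0.15. Of the 4 dex arrays, 2 correlated best with their own number (arrays 2 and 3, at 0.34 and 0.22). With the replicate block the counts were 1700, 1247, 1141, 825, 99 and 55, and with the block on the 36 h arrays alone 3916, 3463, 2523, 2151, 239 and 133. Directions reversed in 3 uncalled differences. Without 1 array, Igfbp3 ranged from -0.66 to 0.23 (without dex array 1), Slc16a3 from -0.042 (without DMSO array 4) to 1.1 and Polr2a from -0.023 to 0.019. Polr2a, at -0.000539 as reported, was 0.0080 with array weights, 0.0028 centred on medians, 0.0039 with quantile normalization and 0.0018, 3.6e-05, 0.019 and 0.013 without dex array 1, 2, 3 or DMSO array 2. The cause was not tested.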

Other observations

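Probes that name no gene or several genes are outside the gene counts. Of 9011 such probes, 588 were called at 36 h (6.53%), against 9.53% of the probes that name 1 gene. The largest rises among them, mMC000846 at 6.0 ± 0.22 and mMO036430 at 4.44 ± 0.13 (log2, SE, n = 4 per group), were both above the largest difference of a single-probe gene (Mogat1, 4.19). The largest falls were mMA035658 at -2.46 ± 0.12 and mMC011307 at -1.68 ± 0.19.

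Among genes outside the comparisons above, Pabpc1, a poly(A)-binding protein, rose on all probes by 0.61 ± 0.08, and Rassf7, of the Ras-association family, by 0.74 ± 0.11, both with arrays that overlapped on a probe. Abhd17b, a depalmitoylating enzyme, was higher by 0.57 ± 0.12 at 36 h and 1.05 ± 0.12 at 2 h.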
